A study of Arabidopsis thaliana with 66 samples.

Results

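HRS1, HHO1, HHO2, HHO3, LBD37, LBD38, LBD39, BT1 and BT2 are 9 Arabidopsis genes known as repressors of nitrogen uptake or of the nitrogen starvation response, and they are described here across 22 groups of root libraries. They were chosen by locus from the 27313 loci of the deposited tables, as the genes of 3 families with this known role. HRS1 and the HHO proteins (also called NIGT1) are GARP-type DNA-binding repressors that nitrate induces and that act on high-affinity nitrate transporter genes such as NRT2.1, NRT2.4 and NRT2.5. LBD37, LBD38 and LBD39 are LOB-domain proteins, also nitrate-induced, that repress nitrate-responsive and anthocyanin genes. BT1 and BT2 encode BTB and TAZ domain scaffold proteins that lower nitrate uptake genes and nitrogen use efficiency. The HHO genes are also known to be induced when phosphate is short, through PHR1, the regulator of phosphate starvation genes, which binds the P1BS element.

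The study measured RNA in roots of 4 genotypes by sequencing, in 66 libraries in 22 groups of 3. The genotypes were the mutant stock lines N8507, N8508 and N9416, with mutations that are not named in the labels, and the wild type Col-0. Plants had been treated for 14 days in one of these ways: nanoP+Th (no phosphate, with nano-hydroxyapatite, a particulate calcium phosphate, and thorium), nanoP (the same without thorium), -P+Th (no phosphate, with thorium), -P (no phosphate), mock+Th (thorium on the control medium) and mock (untreated control). All 6 treatments were at hand for N8507 and N9416, and for N8508 and Col-0 the 5 other than mock+Th. Plant age, thorium dose, particle dose and the number of plants per library are not stated in the labels. The labels do not say whether the 3 replicates of a group were grown separately, and p-values below cover the spread among these libraries, which may be technical.

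Libraries held 9.4 M to 16.8 M assigned reads (M for 1000000), the median being 13.2 M over all, 14.8 M for N8507 and Col-0, and 12 M for N8508 and N9416, which carry another series of library numbers. For N8508 and N9416, genotype and library series therefore cannot be told apart. All 6 root markers had reads in every library (925 to 4423 CPM summed), whereas 10 green tissue markers summed to between 12.4 and 83.6 CPM. The ratio of effective to coding length was lowest in N8507 -P+Th replicate 3 (57.3%), N8507 nanoP replicate 3 (59.2%) and Col-0 -P+Th replicate 1 (61.5%). Col-0 -P+Th replicates 2 and 3 go in 1 respect against their label. A set of 45 loci had under 0.5 CPM in each of the 12 other Col-0 libraries and at least 5 CPM in each of the 12 N8508 libraries outside -P+Th. Of these, 2, 23 and 38 reached 0.5 CPM in Col-0 -P+Th replicates 1, 2 and 3. Their median there was 0, 0.721 and 1.76 CPM, against 17.1 CPM or more in each N8508 library. The set does not single out N8508 among the lines. At least 43 of the 45 reached 0.5 CPM in each N8507 library (median 17.6 CPM or more). In each N9416 library at least 44 did (median 18.8 CPM or more). Conversely, all 13 loci chosen as silent in N8508 and present in Col-0 were present in the 3 Col-0 -P+Th libraries, with medians of 16.7, 10.9 and 14.1 CPM, as the label says. All Col-0 -P+Th values below rest on these 3 libraries. In bulk root RNA, fewer cells of a type and less RNA per cell cannot be told apart.

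On RefSeq's TAIR10.1 annotation, whose coding lengths equal those of the deposited models for all 9 members, HRS1 (AT1G13300) lies at chr1:4556878-4558793, HHO1 (AT3G25790) at chr3:9413052-9415240, HHO2 (AT1G68670) at chr1:25781801-25784118 and HHO3 (AT1G25550) at chr1:8976326-8978305, all on the plus strand. LBD37 (AT5G67420) lies at chr5:26903866-26906524 on the minus strand, LBD38 (AT3G49940) at chr3:18514266-18516131 on the plus strand and LBD39 (AT4G37540) at chr4:17639393-17640925 on the minus strand. BT1 (AT5G63160) and BT2 (AT3G48360) lie on the minus strand at chr5:25333172-25335570 and chr3:17907767-17910738. Their sequence upstream of the annotated gene start was read for motifs, because the HRS1 and HHO genes moved together with phosphate supply in the results that follow. The palindrome GAATATTC occurred within 1000 bases upstream of HRS1, HHO1, HHO2 and HHO3 and of no LBD or BT member, and 2.82% of the 27443 gene windows of that length hold it. These letters are a known recognition sequence of the HRS1/HHO proteins and also fit the P1BS element (GNATATNC), so a match cannot be assigned to either factor by its letters. The 4 places are shown with 30 bases on each side, 5′ to 3′, with the palindrome in capitals, since this is the sequence feature that separates the HRS1/HHO genes from the other members.
HRS1: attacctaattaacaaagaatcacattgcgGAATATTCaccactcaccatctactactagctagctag
HHO1: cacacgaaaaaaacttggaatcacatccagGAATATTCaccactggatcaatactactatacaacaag
HHO2: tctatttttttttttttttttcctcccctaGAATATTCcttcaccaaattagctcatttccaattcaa
HHO3: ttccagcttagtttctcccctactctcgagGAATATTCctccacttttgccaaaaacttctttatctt

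The windows lie at chr1:4556612-4556679 (HRS1), chr3:9412884-9412951 (HHO1), chr1:25781422-25781489 (HHO2) and chr1:8975959-8976026 (HHO3), with the palindrome starting at -236, -138, -349 and -337 bases from the gene start in that order. Searched on both strands, the wider P1BS pattern matched within 1000 bases of 5 of the 9 members, against 20.3% of all windows, the fifth being BT1 at -138. HHO1 held 3 such matches, at -194, -138 and -73. The 5-base HHO recognition letters GAATC occurred in all 9 windows and in 87.8% of all windows, so they separate nothing here. HRS1 and HHO1 had a GAATC 13 bases before the palindrome, and after it a stretch of 30 bases in which 27 were shared, shown with the shared bases in capitals.
HRS1: GATTCGtCTTGTAAcGCGACGGgCCGACTT
HHO1: GATTCGcCTTGTAAtGCGACGGcCCGACTT

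The stretch lies at chr1:4556737-4556766 for HRS1 and chr3:9413008-9413037 for HHO1, and begins 95 and 94 bases after the start of the palindrome. Set against HRS1's letters on both strands, none of the other windows among the 27443 reached 27 of 30 bases (the best had 22, and the median window 15), and the other 7 members had 14 to 17. The stretch was singled out after the sequences had been seen, and a match of letters is a description of these windows, not of binding.

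**Figure D1:**
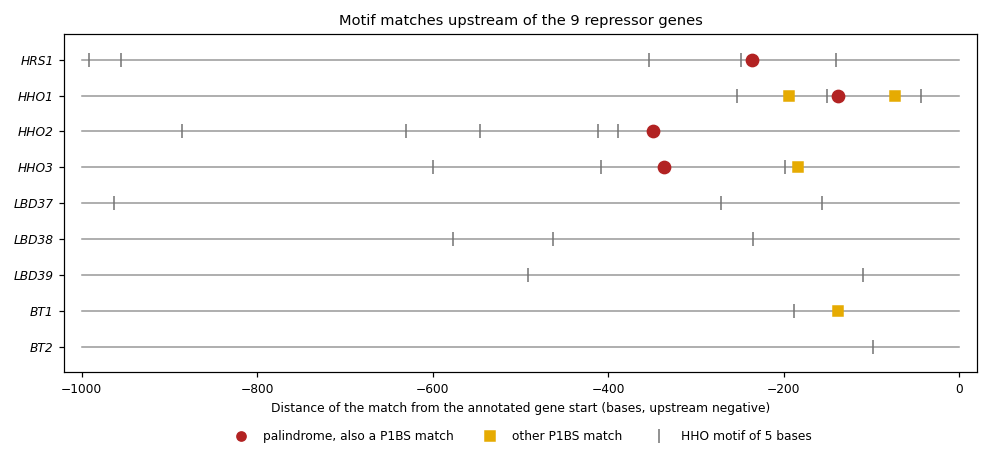
Motif matches in the 1000 bases upstream of the 9 genes, by distance of the match from the annotated gene start in bases, with red circles for the palindrome that also fits P1BS, yellow squares for other P1BS matches and grey ticks for the 5-base HHO letters. Red circles stand only on the lines of HRS1, HHO1, HHO2 and HHO3, between -349 and -138.

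Per length of transcript, BT1 was the most abundant member and HHO1 the least. Over the 66 libraries the median TPM was 216 for BT1, 111 for HHO3, 100 for LBD38, 93.6 for LBD37, 83.6 for HHO2, 68 for HRS1, 57.5 for LBD39, 36.5 for BT2 and 24.6 for HHO1. As a ratio HHO1 varied most, from no read in 1 Col-0 nanoP+Th library to 126 TPM. Levels of one gene between groups are given below as reads per 1000000 (CPM) on scaled library sizes. By mean CPM, HRS1 was highest in Col-0 -P (256 CPM), HHO1 in N9416 -P (170 CPM), HHO2 in N8507 mock+Th (315 CPM) and HHO3 in N9416 -P (343 CPM). LBD37 was highest in N9416 -P (343 CPM), LBD38 in N9416 nanoP (245 CPM) and LBD39 in N8508 mock (130 CPM). BT1 (1459 CPM) and BT2 (340 CPM) were both highest in N8508 nanoP. The lowest group was a Col-0 group for each member, namely nanoP+Th (HRS1, HHO1, LBD37, LBD38, BT1), nanoP (HHO2, HHO3, LBD39) or mock (BT2, 3.4 CPM). Neighbours in the order of group means mostly did not differ beyond their spread, since 16 (HHO3) to 20 (LBD37, LBD38, BT1) of the 21 neighbouring pairs overlapped.

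HHO1 separated the groups most widely. In 14 groups its mean was 27.6 CPM or more, and in the other 8 it was 6.27 CPM or less, with no overlap between N9416 -P+Th (38.6, 27.8 and 16.3 CPM) and N8507 mock (6.57, 7.64 and 4.6 CPM) on either side of the gap. The 8 low groups were the nanoP and mock groups of N8507, N9416 and Col-0 and the nanoP+Th groups of N9416 and Col-0. Each -P, -P+Th and mock+Th group was above the gap, as were every N8508 group and N8507 nanoP+Th. BT1 and BT2 in N8508 nanoP also had no overlap with their next highest group, and LBD37 in N9416 nanoP (257, 301 and 324 CPM) none with N8507 nanoP+Th (130, 134 and 121 CPM).

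**Figure D2:**
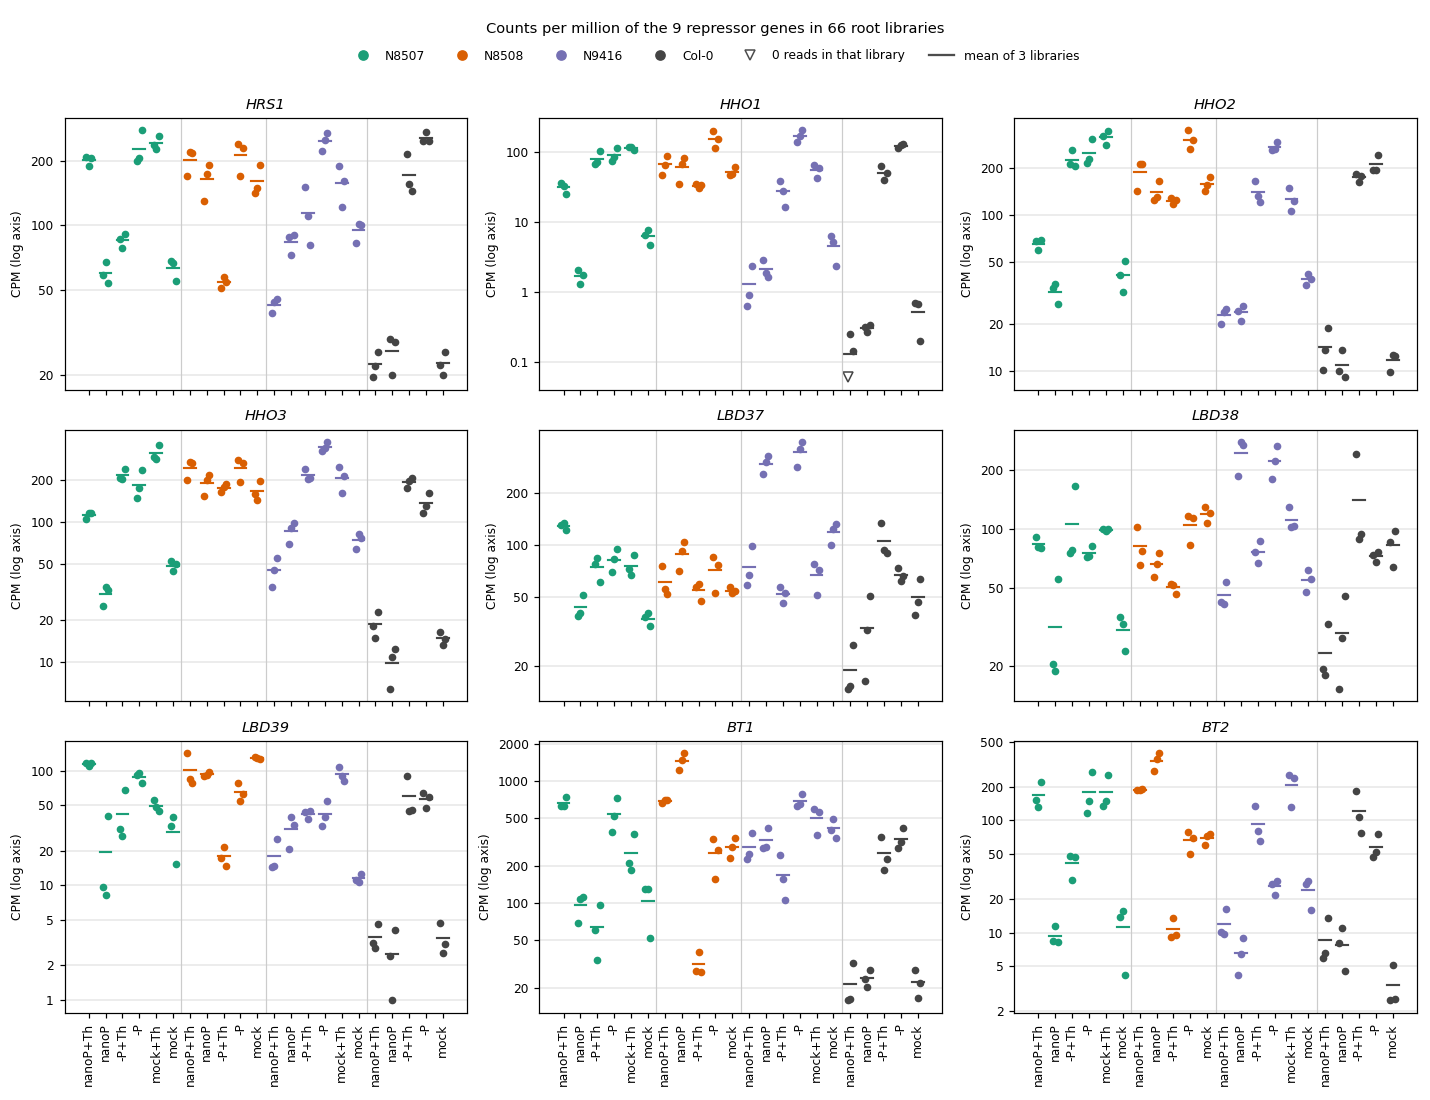
CPM of each member on a log axis in every library (points) with the mean of 3 libraries (line), by treatment within N8507, N8508, N9416 and Col-0, with an open triangle for a library without a read. HHO1 spans from 0 reads in Col-0 nanoP+Th to 202 CPM in N9416 -P. HRS1 (19.5 to 277 CPM), LBD38 (15.2 to 279 CPM) and LBD37 (14.8 to 392 CPM) vary far less as a ratio.

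Roots without phosphate (-P) were set against untreated control roots. HRS1, HHO1, HHO2 and HHO3 rose together in N8507, N9416 and Col-0, whereas in N8508 HHO1 and HHO2 alone passed. All genes tested in a genotype were fitted together with edgeR, and an adjusted p under 0.05 counted as past the threshold. Of the 9 members 7 rose and 0 fell in N8507, where 3.13% of all genes tested rose and 0.776% fell. In N8508 2 rose and 1 fell, against 5.73% and 3.86% of all genes. In N9416 8 rose and 0 fell, against 20.8% and 17.3% of all genes. In Col-0 7 rose and 0 fell, against 3.73% and 2.88% of all genes. The median log2 fold change of the 9 members was 1.91 in N8507, 0.4 in N8508, 1.88 in N9416 and 3.9 in Col-0, and that of all genes lay between -0.02 and 0.02.

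HHO1 was close to silent in Col-0 on mock, with 11, 10 and 3 reads. It had 112, 123 and 129 CPM in Col-0 -P libraries, against 0.687, 0.679 and 0.201 CPM in Col-0 mock libraries (log2 fold change 7.84, SE 0.35, adjusted p = 3.6e-09). In N9416 it had 138, 169 and 202 CPM on -P, against 6.21, 5.12 and 2.32 CPM on mock (5.23, SE 0.35, adjusted p = 7.9e-09). In both genotypes the groups were far apart, and the same held for N8507, with 73.8, 85.6 and 115 CPM on -P, against 6.57, 7.64 and 4.6 CPM on mock (3.85, SE 0.25). In N8508 the values were 197, 112 and 153 CPM on -P, against 46.4, 48 and 60.6 CPM on mock (1.58, SE 0.28, adjusted p = 0.00207), a smaller rise from a mock level that other genotypes reached only without phosphate or with thorium.

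HHO2 gave the same order of genotypes at a higher level. It had 193, 195 and 244 CPM in Col-0 on -P, against 9.99, 12.8 and 12.5 CPM on mock (log2 fold change 4.17, SE 0.23, adjusted p = 2.5e-08). On -P and on mock it had 260, 264 and 294 CPM, against 35.9, 42 and 39.3 CPM, in N9416 (2.81, SE 0.14), and 214, 229 and 306 CPM, against 41.1, 32.1 and 50.7 CPM, in N8507 (2.58, SE 0.20). The 3 libraries of each -P group were above all 3 of mock. This was also so in N8508, with 348, 263 and 300 CPM on -P, against 143, 156 and 176 CPM on mock (0.94, SE 0.16, adjusted p = 0.00155). The share of all genes without overlap between -P and mock, in either direction, was 21.3% in N8507, 25.8% in N8508, 53.3% in N9416 and 26.7% in Col-0.

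HRS1 had 246, 273 and 248 CPM in Col-0 on -P, against 22.3, 20.1 and 25.6 CPM on mock (log2 fold change 3.51, SE 0.20). It rose by 1.84 (SE 0.16) in N8507 and by 1.39 (SE 0.19) in N9416. In N8508 it had 240, 170 and 230 CPM on -P, against 142, 149 and 192 CPM on mock, groups that overlapped (0.41, SE 0.17, adjusted p = 0.138). HHO3 had 115, 130 and 161 CPM in Col-0 on -P, against 16.4, 13.2 and 14.7 CPM on mock (3.21, SE 0.23), and rose by 1.91 (SE 0.18) in N8507 and 2.22 (SE 0.18) in N9416. In N8508 HHO3 gave 0.56 (SE 0.17, adjusted p = 0.0526). Without N8508 -P replicate 2, the lowest -P library of that line for all 9 members, 6 members passed in N8508, HRS1 (adjusted p = 0.0478), HHO3 (adjusted p = 0.015) and LBD37 (adjusted p = 0.0437) among them.

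The LBD genes, which also act on anthocyanin genes, all rose in N9416, and in Col-0 LBD39 alone passed. LBD39 had 63.3, 47.6 and 58.7 CPM in Col-0 on -P, against 4.68, 2.58 and 3.08 CPM on mock (log2 fold change 4.04, SE 0.41, adjusted p = 1.4e-05). LBD37 (0.44, SE 0.33) and LBD38 (-0.18, SE 0.40) did not pass in Col-0, where LBD38 had 73.9, 68.1 and 75.9 CPM on -P, inside the range of 64.1 to 98.1 CPM on mock. Within Col-0, the LBD39 groups were far apart and the LBD38 groups overlapped. In N9416 all 3 rose, with LBD37 at 282, 357 and 392 CPM on -P, against 100, 123 and 131 CPM on mock (1.54, SE 0.19), LBD38 at 2.02 (SE 0.18) and LBD39 at 1.88 (SE 0.24).

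In N8507 LBD37 rose (1.12, SE 0.17, adjusted p = 8.4e-04), and LBD38 (1.29, SE 0.35, adjusted p = 0.0509) and LBD39 (1.58, SE 0.49, adjusted p = 0.0977) did not pass. Both passed without the libraries of low effective length (adjusted p = 8.8e-06 and 4.3e-04), with DESeq2 (adjusted p = 0.0113 and 0.0264) and in a fit of all 66 libraries (adjusted p = 0.00399 and 0.00209). The N8507 libraries of low effective length are of nanoP and -P+Th. Leaving them out kept all -P and mock libraries, and the log2 fold changes were then 1.28 for LBD38 and 1.58 for LBD39. LBD39 fell in N8508, with 78.8, 53.9 and 63.2 CPM on -P, against 133, 130 and 127 CPM on mock (-0.99, SE 0.19, adjusted p = 0.00415), the opposite direction to Col-0 and N9416. The fall missed the threshold in the fit of all 66 libraries (adjusted p = 0.122).

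BT1 had 281, 314 and 408 CPM in Col-0 on -P, against 28.3, 16.8 and 22.3 CPM on mock (log2 fold change 3.90, SE 0.33, adjusted p = 1.9e-06). BT2 had 47, 52.9 and 75.9 CPM in Col-0 on -P, against 2.5, 5.16 and 2.54 CPM on mock (4.12, SE 0.46). The pair rose in N8507 too, BT1 by 2.36 (SE 0.41) and BT2 by 3.97 (SE 0.46). In N8507 BT2 had 116, 148 and 270 CPM on -P, against 13.8, 15.7 and 4.18 CPM on mock. In N8508 BT1 (-0.16, SE 0.23) and BT2 (-0.05, SE 0.17) did not pass, and on -P BT2 had 79.1, 50.7 and 70 CPM, overlapping 60.1, 72.5 and 75.8 CPM on mock. In N9416 BT2 (0.11, SE 0.32) did not pass and BT1 rose weakly (0.74, SE 0.27, adjusted p = 0.0375). That call passed in 1 of 6 fits that left out 1 library, the fit without mock replicate 2, with adjusted p of 0.0605 to 0.13 in the others, and was lost with DESeq2 and in the fit of all 66 libraries.

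**Figure D3:**
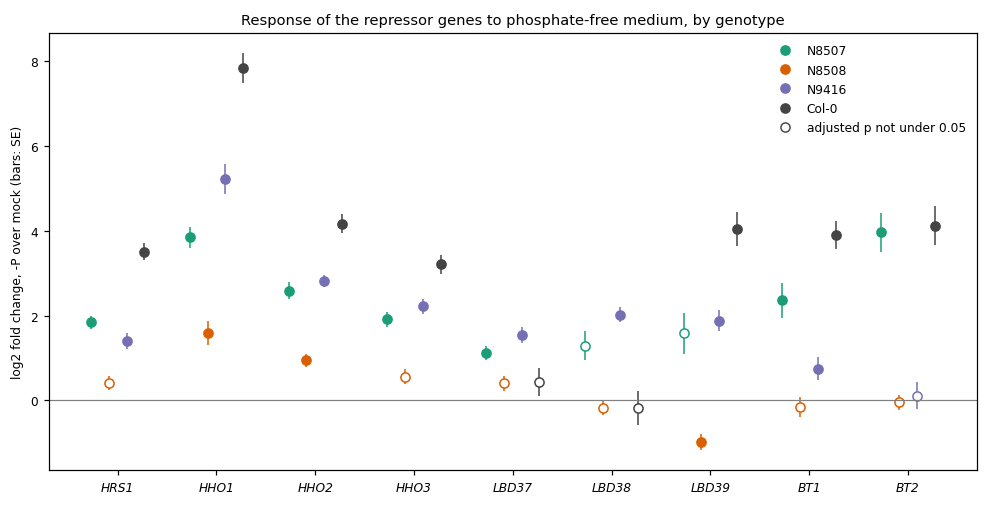
Log2 fold change of -P over mock for each member, with its SE, in N8507, N8508, N9416 and Col-0 (3 libraries per group), filled where the adjusted p was under 0.05. Col-0 gives the highest value for HRS1, HHO1, HHO2, HHO3, LBD39, BT1 and BT2, and N8508 stays closest to 0 for HRS1 and the HHO genes.

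Roots on phosphate-free medium with particles (nanoP) were compared with roots on phosphate-free medium alone (-P). In N8507, N9416 and Col-0 HRS1 and the HHO genes all fell, HHO1 most. In N8507 0 of 9 members rose and 8 fell, where 2.11% of all genes tested rose and 2.38% fell. In N8508 3 rose and 3 fell, against 17.7% and 20.3% of all genes. In N9416 0 rose and 6 fell, against 15.2% and 15.1% of all genes. In Col-0 0 rose and 7 fell, against 2.6% and 3.49% of all genes. The comparisons with -P and those of -P with mock share the -P libraries, so opposite signs in both are in part the same measurement.

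With nanoP, HHO1 had 0.311, 0.264 and 0.337 CPM (4, 4 and 5 reads) in Col-0, against 112, 123 and 129 CPM on -P (log2 fold change -8.61, SE 0.38). HHO1 had 2.02, 1.29 and 1.71 CPM in N8507 with nanoP, against 73.8, 85.6 and 115 CPM on -P (-5.78, SE 0.29), and 2.87, 1.87 and 1.62 CPM in N9416, against 138, 169 and 202 CPM on -P (-6.30, SE 0.39). In N8508 HHO1 with nanoP had 35, 66.7 and 81.5 CPM, below the 3 values on -P and overlapping its mock values (-1.33, SE 0.27, adjusted p = 0.0014). The log2 fold change of HHO2 was -2.95 in N8507, -1.10 in N8508, -3.49 in N9416 and -4.25 in Col-0, all past the threshold. HRS1 (-0.37, SE 0.17) and HHO3 (-0.36, SE 0.17) did not pass in N8508, and fell in each other genotype, HRS1 with log2 fold changes of -1.93 in N8507, -1.54 in N9416 and -3.31 in Col-0.

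LBD39 had 2.41, 0.989 and 4.05 CPM in Col-0 with nanoP, against 63.3, 47.6 and 58.7 CPM on -P (log2 fold change -4.51, SE 0.42). In N8507 it had 9.68, 8.14 and 40.3 CPM with nanoP, against 91.7, 96.1 and 78.9 CPM on -P (-2.22, SE 0.50, adjusted p = 0.0152), and the high value was that of replicate 3, a library of low effective length. Without that library the change was -3.30 (adjusted p = 1.9e-04), and without nanoP replicate 1 or 2 it did not pass (adjusted p = 0.0792 and 0.0603). LBD38 in replicate 3 read 55.5 CPM, against 20.4 and 18.8 CPM in the other N8507 nanoP libraries. The part of library quality in these values was not tested. In N9416, with nanoP, LBD37 (257, 301 and 324 CPM, -0.20, SE 0.18), LBD38 (186, 279 and 270 CPM, 0.15, SE 0.17) and LBD39 (-0.42, SE 0.22) stayed near their -P levels and did not pass, unlike the HHO genes of the same libraries.

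BT1 and BT2 stood out in N8508, where they rose with nanoP to their highest level in the series. BT1 had 1226, 1472 and 1680 CPM with nanoP, against 336, 158 and 272 CPM on -P (log2 fold change 2.52, SE 0.24, adjusted p = 1.4e-06) and 235, 288 and 338 CPM on mock (2.36, SE 0.24, adjusted p = 5.6e-06). BT2 had 274, 350 and 397 CPM with nanoP, against 79.1, 50.7 and 70 CPM on -P (2.36, SE 0.18) and 60.1, 72.5 and 75.8 CPM on mock (2.30, SE 0.18). No nanoP library overlapped those on -P or on mock, as was so for 48.1% and 50.1% of all genes tested in N8508. In the other genotypes both fell with nanoP relative to -P, BT1 with log2 fold changes of -2.49 in N8507, -1.03 in N9416 and -3.78 in Col-0, and BT2 of -4.25, -1.96 and -2.90 in that order. In N8508 LBD39 rose as well against -P (0.52, SE 0.19, adjusted p = 0.0447), a call that passed in 1 of 6 fits without 1 library, that without -P replicate 1, and was lost in the fit of all 66 libraries. LBD38 fell there (-0.66, SE 0.16, adjusted p = 0.0047), which also missed the threshold in the fit of all 66 libraries (adjusted p = 0.123).

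Against mock, nanoP left HRS1 and the HHO genes of Col-0 near the control level. In Col-0 0 members passed, where 0.271% of all genes rose and 0.291% fell; 3 had an unadjusted p under 0.05 (HHO3, LBD38, BT2) and DESeq2 called 1, LBD38 (-1.5, adjusted p = 0.0174). In N8507 1 fell and 0 rose, against 1.11% and 1.94% of all genes, namely HHO1 (-1.93, SE 0.27, adjusted p = 8.9e-04). In N8508 3 rose and 1 fell, against 13.5% and 15.4% of all genes, BT1, BT2 and LBD37 (0.72, SE 0.18) upward and LBD38 (-0.84, SE 0.16) downward, the last not in the fit of all 66 libraries (adjusted p = 0.0582). In N9416 3 rose and 2 fell, against 8.1% and 6.28% of all genes.

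The 3 that rose in N9416 were the LBD genes. LBD38 had 186, 279 and 270 CPM with nanoP, against 47.7, 61.9 and 55.7 CPM on mock (log2 fold change 2.18, SE 0.18, adjusted p = 1.1e-06). LBD37 rose by 1.34 (SE 0.19) and LBD39 by 1.46 (SE 0.24), with 20.8, 39.2 and 33.3 CPM, against 11.2, 10.6 and 12.6 CPM on mock. HHO2 (-0.69, SE 0.14) and BT2 (-1.84, SE 0.35) fell in N9416, BT2 to 4.23, 6.44 and 8.97 CPM, against 27.4, 29 and 15.9 CPM on mock. In this line, then, LBD and BT2 values lay on opposite sides of mock in the same 3 libraries. Without the libraries of low effective length 4 members passed in N8507, all lower, among them LBD39 (-1.72, adjusted p = 0.00252).

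Thorium on the control medium was tested in N8507 and N9416, and HRS1 and the HHO genes rose in both lines. In N8507 8 members rose with mock+Th and 0 fell, against 8.22% and 3.59% of all genes. In N9416 7 rose and 1 fell, against 27.2% and 24.5% of all genes. HHO1 had 117, 116 and 106 CPM with mock+Th in N8507, against 6.57, 7.64 and 4.6 CPM on mock (log2 fold change 4.18, SE 0.26, adjusted p = 1.8e-08). In N9416 it had 64.1, 42 and 59.1 CPM, against 6.21, 5.12 and 2.32 CPM (3.62, SE 0.35). The 2 groups did not overlap in either line, as was so for 37.2% of all genes tested in N8507 and 58.4% in N9416. HHO2 had 319, 280 and 346 CPM with mock+Th in N8507, its highest group, against 41.1, 32.1 and 50.7 CPM on mock (2.94, SE 0.21), and 149, 106 and 123 CPM in N9416, against 35.9, 42 and 39.3 CPM (1.71, SE 0.14). HRS1 and HHO3 rose by 1.94 and 2.67 in N8507 and by 0.76 and 1.51 in N9416.

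Among the LBD genes LBD39 rose most in N9416, with 108, 90.5 and 80.8 CPM with mock+Th, against 11.2, 10.6 and 12.6 CPM on mock (log2 fold change 3.04, SE 0.25, adjusted p = 4.0e-08). LBD37 fell in N9416 (-0.80, SE 0.19, adjusted p = 0.00206) and rose in N8507 (1.02, SE 0.17), and the difference between the lines was not tested. LBD38 rose in both (1.70, SE 0.35, in N8507 and 1.04, SE 0.18, in N9416). BT2 rose in both lines, with 134, 149 and 255 CPM with mock+Th in N8507, against 13.8, 15.7 and 4.18 CPM on mock (4.00, SE 0.46), and 252, 131 and 239 CPM in N9416, against 27.4, 29 and 15.9 CPM (3.13, SE 0.32). BT1 did not pass in N9416 (0.31, SE 0.27). Its rise in N8507 (1.3, SE 0.39, adjusted p = 0.04) held in 1 of 6 fits without 1 library, that without mock+Th replicate 2, and reached adjusted p = 0.22 without mock+Th replicate 3.

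On phosphate-free medium without particles, most members that passed with thorium fell. With -P+Th 0 members rose and 3 fell in N8507, against 15.9% and 13.9% of all genes. In N8508 0 rose and 8 fell, against 23.2% and 23.9% of all genes. In N9416 1 rose and 7 fell, against 20.1% and 19.9% of all genes. In Col-0 0 rose and 2 fell, against 11.9% and 13.5% of all genes. In the fit of all 66 libraries 6 members passed in Col-0, the 4 added calls being rises of LBD37 (0.65, adjusted p = 0.0327), LBD38 (0.96, adjusted p = 0.017), HHO3 (0.51, adjusted p = 0.0371) and BT2.

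HRS1 fell in all 4 genotypes. It had 86.3, 78.5 and 91.3 CPM in N8507 -P+Th, against 199, 207 and 277 CPM on -P (log2 fold change -1.40, SE 0.16). In N8508 it had 51.2, 57.5 and 54.3 CPM, against 240, 170 and 230 CPM (-1.96, SE 0.17), and in N9416 150, 111 and 81 CPM, against 221, 251 and 270 CPM (-1.07, SE 0.18). These groups did not overlap, as was so for 41.6% of all genes tested in N8507, 55.9% in N8508 and 52.2% in N9416. In Col-0 it had 216, 155 and 144 CPM, against 246, 273 and 248 CPM on -P (-0.60, SE 0.18, adjusted p = 0.0272), and the call was lost without -P+Th replicate 2 (adjusted p = 0.0625) or 3 (adjusted p = 0.0863), the libraries with transcripts otherwise silent in Col-0, and without -P replicate 1 (adjusted p = 0.0535) or 2 (adjusted p = 0.085).

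HHO1 fell with -P+Th in N8508, N9416 and Col-0. It had 34.4, 30.7 and 33.5 CPM in N8508, against 197, 112 and 153 CPM on -P (log2 fold change -2.21, SE 0.29), and 38.6, 27.8 and 16.3 CPM in N9416, against 138, 169 and 202 CPM (-2.57, SE 0.29). In Col-0 it had 62, 39.1 and 50.4 CPM, against 112, 123 and 129 CPM (-1.29, SE 0.24, adjusted p = 0.00139), a call that held in all 6 fits without 1 library (adjusted p of at most 0.00815). Each such fit kept Col-0 -P+Th libraries with low effective length or with transcripts otherwise silent in Col-0, so it does not check for these. In N8507 HHO1 had 66.5, 71.9 and 102 CPM, overlapping 73.8, 85.6 and 115 CPM on -P (-0.17, SE 0.22, adjusted p = 0.603). The 102 CPM came from replicate 3, a library of low effective length. By TPM these N8507 groups did not overlap, with 43.9, 45.3 and 45.7 on -P+Th, against 47.1, 54.6 and 75.5 on -P. HHO2 fell in N8508 (-1.28, SE 0.16) and N9416 (-0.91, SE 0.13), as did HHO3 (-0.45, SE 0.17, and -0.62, SE 0.17). In N8508 the HHO3 call passed in 1 of 6 fits without 1 library, that without -P replicate 2, and was lost in the fit of all 66 libraries. HHO3 was the least changed of the HRS1/HHO genes wherever it was called, and in Col-0 it had 173, 197 and 206 CPM with -P+Th, all above 115, 130 and 161 CPM on -P, without passing (0.48, SE 0.21, adjusted p = 0.102). By TPM these Col-0 groups overlapped, with 86, 139 and 137 on -P+Th, against 83.9, 91 and 115 on -P. The 86 was that of -P+Th replicate 1, a library of low effective length.

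BT1 fell most of the 9 members in N8507 and N8508. It had 59.8, 34.4 and 95.6 CPM in N8507 -P+Th, against 384, 511 and 724 CPM on -P (log2 fold change -3.08, SE 0.42, adjusted p = 3.5e-05), and 27.9, 40 and 27.1 CPM in N8508, against 336, 158 and 272 CPM (-3.00, SE 0.25). BT2 fell with it in both (-2.07, SE 0.42, and -2.62, SE 0.19). In N9416 they parted, BT1 with 248, 158 and 105 CPM, against 623, 650 and 778 CPM on -P (-1.95, SE 0.28), and BT2 with 134, 80.2 and 66.2 CPM, against 27.1, 21.8 and 28.9 CPM (1.90, SE 0.31, adjusted p = 1.2e-04). In Col-0 neither passed in the fit per genotype, BT2 at 1.04 (SE 0.39, adjusted p = 0.0608), which was 1.06 and past the threshold with DESeq2 (adjusted p = 0.034) and in the fit of all 66 libraries (adjusted p = 0.0219).

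LBD37 and LBD38 fell in N9416, LBD37 to 57.5, 46.2 and 52.5 CPM with -P+Th, against 282, 357 and 392 CPM on -P (log2 fold change -2.67, SE 0.20, adjusted p = 4.6e-08), and LBD38 by 1.49 on the log2 scale. In N8508 LBD38 (-1.04, SE 0.16) and LBD39 (-1.86, SE 0.21) fell. LBD38 had 241, 89.1 and 93.9 CPM in Col-0 -P+Th, and 75.6, 77.9 and 165 CPM in N8507 -P+Th. Each high value came from the library of low effective length, as did the highest LBD39 value of each group (89.7 and 68.1 CPM), and the part of that quality was not tested. Neither gene passed in these genotypes, and without the N8507 library LBD39 fell there (-1.60, adjusted p = 2.9e-04).

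With nanoP, thorium went with a rise of all 9 members in N8507 and of none in N8508, N9416 or Col-0, a difference between genotypes that was not tested. In N8507 9 rose and 0 fell, against 1.96% of all genes that rose and 2.69% that fell. In N8508 0 rose and 2 fell, against 9.22% and 7.18% of all genes. In N9416 0 rose and 5 fell, against 10.5% and 11.1% of all genes. In Col-0 0 rose and 0 fell, against 0.0803% and 0.0251% of all genes; 2 members had an unadjusted p under 0.05 (HHO3, LBD37) and DESeq2 called 1, HHO3 (0.92, adjusted p = 0.0129).

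In N8507 HHO1 had 36.4, 32.6 and 24.9 CPM with nanoP+Th, against 2.02, 1.29 and 1.71 CPM with nanoP (log2 fold change 4.25, SE 0.27, adjusted p = 3.6e-07). BT2 had 153, 131 and 220 CPM, against 8.5, 11.4 and 8.19 CPM (4.18, SE 0.47), and BT1 624, 617 and 739 CPM, against 68.5, 108 and 113 CPM (2.80, SE 0.41). LBD39 had 118, 111 and 117 CPM, against 9.68, 8.14 and 40.3 CPM (2.61, SE 0.51). None of these groups overlapped, as was so for 26.6% of all genes tested. HRS1 rose by 1.77 (SE 0.16), HHO2 by 1.04 (SE 0.19), HHO3 by 1.89 (SE 0.18) and LBD37 by 1.58 (SE 0.18). LBD38 rose by 1.44 (SE 0.35, adjusted p = 0.0259), but in 5 of 6 fits without 1 library it missed the threshold (adjusted p of 0.0752 to 0.117), and in the other, without nanoP replicate 3, it gave 2.1 (adjusted p = 5.1e-04). LBD39 without that library gave 3.70 (adjusted p = 8.2e-05). Of the phosphate signalling genes 0 of 11 rose and 0 fell in the same comparison (median log2 fold change 0.02). Among them SPX1, an intracellular phosphate sensor gene named here after its values were seen, had 26.1, 24.8 and 34.5 CPM with nanoP+Th, against 35.7, 32.4 and 27.2 CPM with nanoP in N8507. In this comparison the HHO1 groups did not overlap and the SPX1 groups did, and whether the genes differed in their change was not tested.

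In N9416 nanoP+Th lowered LBD38 to 42.5, 41.2 and 53.6 CPM, against 186, 279 and 270 CPM with nanoP (log2 fold change -2.40, SE 0.18, adjusted p = 4.2e-07), and LBD37 to 58.3, 66.9 and 98.9 CPM, against 257, 301 and 324 CPM (-1.96, SE 0.19). HRS1 (-0.96, SE 0.19) and HHO3 (-0.91, SE 0.18) fell too. LBD39 fell (-0.76, SE 0.23, adjusted p = 0.0281) in a call that held in 2 of 6 fits without 1 library, those without nanoP+Th replicate 3 and nanoP replicate 1, with adjusted p up to 0.12 in the rest, and was lost in the fit of all 66 libraries. In N8508 BT1 fell to 655, 701 and 692 CPM, against 1226, 1472 and 1680 CPM with nanoP (-1.09, SE 0.23), and BT2 to 187, 188 and 189 CPM, against 274, 350 and 397 CPM (-0.85, SE 0.17). Both stayed above every N8508 mock and -P library. The BT2 fall missed the threshold in the fit of all 66 libraries (adjusted p = 0.17), and without nanoP+Th replicate 1 also HHO2 (0.60, adjusted p = 0.0122) and LBD37 (-0.72, adjusted p = 0.0214) passed in N8508.

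The thorium effect with nanoP minus that on -P tested whether the medium changed it. In N8507 8 members were higher and 0 lower in this difference, against 10.9% and 13.1% of all genes. In N8508 8 were higher and 0 lower, against 17.1% and 11.7% of all genes. In N9416 2 were higher and 1 lower, against 10.3% and 10% of all genes. In Col-0 0 were higher and 0 lower, against 4.45% and 3.27% of all genes; 3 had an unadjusted p under 0.05 (HHO2, LBD37, LBD38) and DESeq2 called 1, LBD37 (-1.44, adjusted p = 0.0294). LBD37 in Col-0 also passed without nanoP+Th replicate 3 (adjusted p = 0.0497) or nanoP replicate 1 (adjusted p = 0.0139).

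The difference was largest for the BT genes of N8507, with BT2 at 6.25 (SE 0.63, adjusted p = 3.8e-06) and BT1 at 5.88 (SE 0.59, adjusted p = 3.8e-06). HHO1 (4.42, SE 0.35), LBD39 (3.69, SE 0.70; 4.75 without nanoP replicate 3) and HRS1 (3.17, SE 0.23) followed, and LBD38 (0.94, SE 0.49, adjusted p = 0.184) did not pass. In N8508 the values ran from 0.82 (HHO3, SE 0.24, adjusted p = 0.0189) to 2.33 (HHO1, SE 0.39), and LBD37 (-0.17, SE 0.25) did not pass. HHO3 missed the threshold without nanoP replicate 1 (adjusted p = 0.0532). In N9416 BT1 (1.76, SE 0.38) and HHO2 (0.88, SE 0.20) were higher and LBD38 lower (-0.92, SE 0.24, adjusted p = 0.0135; adjusted p = 0.266 in the fit of all 66 libraries). Without nanoP+Th replicate 1 of N9416, 5 members passed, HHO1 (2.21, adjusted p = 0.0488) and LBD37 (0.86, adjusted p = 0.0354) among them.

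**Figure D4:**
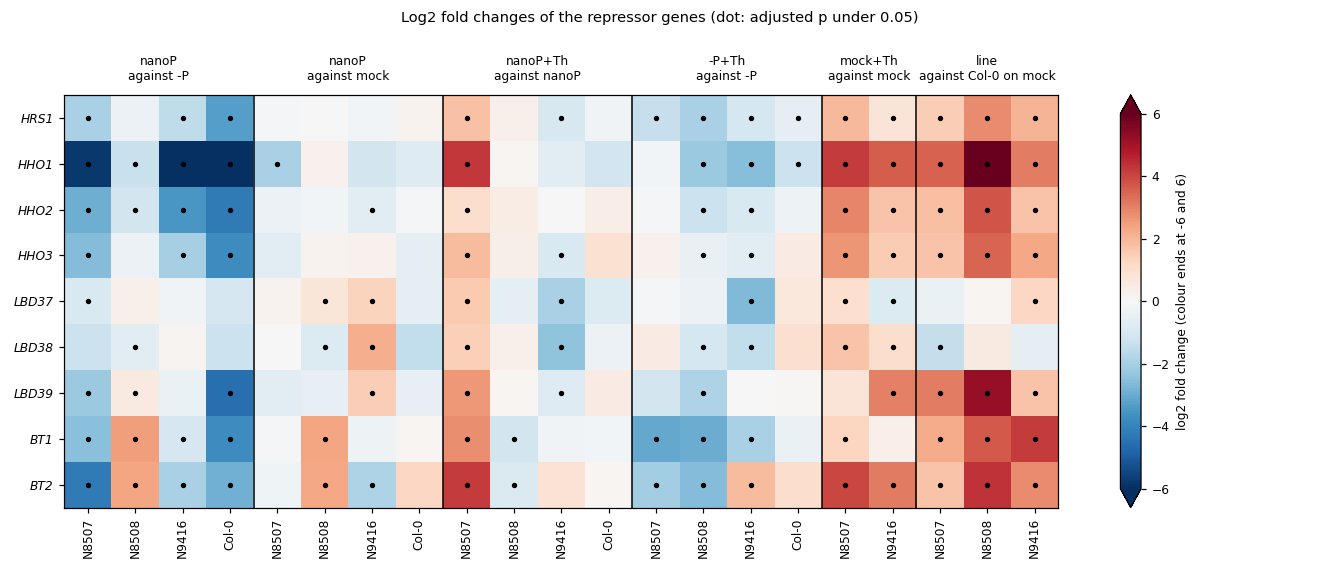
Log2 fold changes (colour, red higher and blue lower in the group named first, colour ending at -6 and 6) of the 9 members in each comparison within N8507, N8508, N9416 and Col-0 and of each line against Col-0 on mock, with a dot where the adjusted p was under 0.05. The column of nanoP+Th against nanoP in N8507 is red with a dot for all 9 members, and the Col-0 column beside it has no dot.

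On mock, all 3 lines had higher levels of most members than Col-0. In N8507 7 members were higher than in Col-0 and 1 lower, against 18.1% and 18% of all genes. In N8508 7 were higher and 0 lower, against 14.8% and 12.4% of all genes. In N9416 8 were higher and 0 lower, against 15.8% and 16% of all genes. For N8508 and N9416 these differences cannot be told apart from those of the library series.

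HRS1, the HHO genes, LBD39, BT1 and BT2 were higher in every line, and most so in N8508. HHO1 had 46.4, 48 and 60.6 CPM in N8508 mock, against 0.687, 0.679 and 0.201 CPM in Col-0 mock (log2 fold change 6.60, SE 0.43, adjusted p = 5.6e-18). Its difference was 3.56 (SE 0.44) in N8507 and 3.09 (SE 0.47) in N9416. LBD39 had 133, 130 and 127 CPM in N8508 mock, against 4.68, 2.58 and 3.08 CPM in Col-0 mock (5.23, SE 0.45), and was 3.09 (SE 0.42) higher in N8507 and 1.73 (SE 0.42) in N9416. HHO2 differed by 1.81 in N8507, 3.75 in N8508 and 1.73 in N9416, HRS1 by 1.48, 2.83 and 2.06, and HHO3 by 1.72, 3.49 and 2.32 in the same order. BT1 was the exception to N8508 leading, with 398, 491 and 341 CPM in N9416 mock, against 28.3, 16.8 and 22.3 CPM in Col-0 mock (4.19, SE 0.38), and 3.67 (SE 0.37) in N8508.

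LBD37 and LBD38 did not share this difference. LBD38 was lower in N8507 than in Col-0, at 35.5, 32.5 and 23.6 CPM, against 85.7, 64.1 and 98.1 CPM (log2 fold change -1.43, SE 0.32, adjusted p = 3.3e-04), and did not pass in N8508 (0.53, SE 0.31) or N9416 (-0.58, SE 0.31). LBD37 was higher in N9416 (1.24, SE 0.24) and did not pass in N8507 (-0.41, SE 0.24) or N8508 (0.13, SE 0.24).

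The response to -P of each line was compared with that of Col-0, which tested whether the genotypes differed in it. In N8507 1 member was higher and 6 were lower, against 3.47% and 2.06% of all genes. In N8508 0 were higher and 7 lower, against 3.37% and 3.08% of all genes. In N9416 2 were higher and 7 lower, against 3.95% and 3.2% of all genes. The 3 tests share the Col-0 libraries, and each uses the mock libraries that also gave the differences on mock.

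HHO1 had the largest difference of the 9 members in N8507 (-3.97, SE 0.53) and N8508 (-6.26, SE 0.52), and was lower in N9416 as well (-2.61, SE 0.55). HHO2 (-1.56, -3.23 and -1.36), HRS1 (-1.65, -3.09 and -2.11) and HHO3 (-1.27, -2.64 and -0.98) were lower in each line in the same order. LBD39 (-2.43, -5.02 and -2.15) and BT1 (-1.52, -4.06 and -3.15) were too. BT2 was lower in N8508 (-4.17, SE 0.56) and N9416 (-4.00, SE 0.56) and did not pass in N8507 (-0.13, SE 0.54, adjusted p = 0.962), where it rose on -P as it did in Col-0. LBD38 went the other way in N8507 (1.49, SE 0.45, adjusted p = 0.0344) and N9416 (2.2, SE 0.45, adjusted p = 6.8e-04), as did LBD37 in N9416 (1.11, SE 0.34, adjusted p = 0.0311).

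Some of these calls lay near the threshold and were lost in several of the fits without 1 library. The count of 7 members in N8507 was 5 or 6 in each of those 12 fits. In fits without 1 library, LBD38 in N8507 passed in 4 of 12 (adjusted p up to 0.207 over all alternatives), BT1 in N8507 in 3 of 12 (up to 0.152), LBD37 in N9416 in 5 of 12 (up to 0.142) and HHO3 in N9416 in 9 of 12 (up to 0.0708). The HHO3 call was lost without Col-0 -P replicate 3, Col-0 mock replicate 2 or N9416 -P replicate 1. The LBD38 call held only without Col-0 -P replicate 3, Col-0 mock replicate 2, N8507 -P replicate 1 or N8507 mock replicate 1, and that of BT1 only without Col-0 mock replicate 1, N8507 -P replicate 3 or N8507 mock replicate 3. The LBD37 call held only without Col-0 -P replicate 1, Col-0 mock replicate 1 or 2, N9416 -P replicate 1 or N9416 mock replicate 3. With only the 2 genotypes compared, LBD38 and BT1 in N8507 and LBD37 in N9416 did not pass.

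Other nitrogen genes were counted from lists chosen with earlier results of these data known. Of 18 nitrogen uptake and nitrogen starvation genes 2 rose and 8 fell on -P against mock in N8507, 4 and 1 in N8508, 1 and 11 in N9416, and 3 and 9 in Col-0 (16 or 17 tested). Of all genes 3.13% rose and 0.776% fell on -P in N8507, 5.73% and 3.86% in N8508, 20.8% and 17.3% in N9416, and 3.73% and 2.88% in Col-0. With mock+Th against mock 2 rose and 12 fell of 17 in N8507 and 1 and 14 of 17 in N9416, and the list's median log2 fold change was -1.37 and -1.98, beside -0.01 and 0.03 for all genes. Of all genes 8.22% rose and 3.59% fell in N8507, and 27.2% and 24.5% in N9416. With -P+Th against -P 10 of 16 tested fell in N8507, 11 of 16 in N8508, 13 of 17 in N9416 and 11 of 17 in Col-0, with 2 that rose in each. The shares of all genes that fell were 13.9% in N8507, 23.9% in N8508, 19.9% in N9416 and 13.5% in Col-0. Those that rose were 15.9%, 23.2%, 20.1% and 11.9% in the same order.

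NRT2.5, a high-affinity nitrate transporter gene on which the HHO proteins are known to act, had 73.6, 58.5 and 88.2 CPM in N9416 on -P, against 497, 566 and 513 CPM on mock (log2 fold change -2.83, SE 0.26). In Col-0 it had 8.62, 5.71 and 1.09 CPM on -P, against 403, 303 and 395 CPM on mock, and in N8508 it was at 1.17, 1.72 and 1.1 CPM already on mock. In N8507 it had 2.68, 1.69 and 0.918 CPM with nanoP+Th, against 480, 344 and 329 CPM with nanoP (-7.74, SE 0.66). In N8508 nanoP it had 27.1, 35.8 and 67.6 CPM, where HHO1 had 35, 66.7 and 81.5 CPM, and in N8507 mock 42.8, 16.6 and 51.1 CPM, where HHO1 had 6.57, 7.64 and 4.6 CPM. These groups, of different genotypes and library series, were picked by no stated rule and do not stand for the other groups. In N8508 mock, for one, HHO1 had 46.4, 48 and 60.6 CPM beside the low NRT2.5 values given above. Across all group means of log2 CPM, NRT2.5 and HHO1 had Pearson r = -0.82. Whether HHO1 acts on NRT2.5 in these roots was not tested. GDH3, for a glutamate dehydrogenase (-7.59, SE 0.31), AMT1;5, for an ammonium transporter (-7.40, SE 0.64), and DUR3, for a urea transporter (-6.25, SE 0.27), fell on -P in Col-0, and in N9416 GDH3 (-2.58, SE 0.27) and DUR3 (-2.51, SE 0.10).

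Genes of nitrate reduction and its reductant supply moved otherwise. Of 14, 1 rose and 0 fell on -P in N8507, 0 and 0 in N8508, 6 and 2 in N9416 and 6 and 1 in Col-0. NIA1, a nitrate reductase gene, had 1011, 949 and 1035 CPM in Col-0 on -P, against 152, 139 and 140 CPM on mock (log2 fold change 2.81, SE 0.17), with NIA2 (1.05, SE 0.15) and the asparagine synthetase gene ASN2 (1.24, SE 0.21) in the same direction. In N9416 RFNR1 (1.11, SE 0.17), which supplies reductant in roots, ASN2 (1.04, SE 0.13) and UPM1 (0.74, SE 0.15), a siroheme gene, rose. In N8507 10 of 14 rose and 0 fell with nanoP+Th against nanoP, in N8508 5 rose and 0 fell, in N9416 1 rose and 10 fell, and in Col-0 0 rose and 0 fell. Of all genes 1.96% rose and 2.69% fell in N8507, 9.22% and 7.18% in N8508, 10.5% and 11.1% in N9416, and 0.0803% and 0.0251% in Col-0. LBD37 had log2 fold changes of 1.58 in N8507, -0.54 in N8508 (adjusted p = 0.0511), -1.96 in N9416 and -0.81 in Col-0 (adjusted p = 0.797) in the same comparison. With -P+Th against -P, 9 of the 14 rose and 1 fell in N8507, 10 and 1 in N8508, 2 and 11 in N9416, and 2 and 1 in Col-0. The shares of all genes that rose and fell were 15.9% and 13.9% in N8507, 23.2% and 23.9% in N8508, 20.1% and 19.9% in N9416, and 11.9% and 13.5% in Col-0. In this comparison LBD38 and LBD39 fell in N8508 and LBD37 (-2.67) and LBD38 (-1.49) fell in N9416. No LBD gene passed in N8507 or Col-0 in the fit per genotype. A link between the LBD genes and this list was not tested.

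The nitrate signalling list, 16 genes, had 1 that rose and 0 that fell on -P in N8507, 3 and 0 in N8508, 3 and 7 in N9416 and 1 and 3 in Col-0. Over all genes 20.8% rose and 17.3% fell on -P in N9416, against at most 5.73% and 3.86% in N8507, N8508 and Col-0, so list counts in N9416 stand beside a high share. The NIN-like regulator gene NLP8 fell in Col-0 (-3.99, SE 0.25) and N9416 (-1.64, SE 0.19), NLP9 in Col-0 (-2.53, SE 0.26) and the MADS-box gene ANR1 in N9416 (-1.42, SE 0.34). TGA1 rose in Col-0 (0.82, SE 0.12) and CDF1 in N9416 (1.27, SE 0.20). Phosphate signalling genes counted 6 that rose and 0 that fell of 11 in N8507, 2 and 1 in N8508, 7 and 2 in N9416 and 6 and 1 in Col-0, led in N9416 and Col-0 by IPS1 (10.98 and 12.07), SPX3 (6.90 and 7.56) and PHT1;4 (5.51 and 7.07). Of the close relatives of the members, 0 rose and 1 fell of 8 tested in each of N8507, N8508 and Col-0, and 1 rose and 2 fell in N9416. Those named by size were HHO6 in Col-0 (-0.99, SE 0.27) and HHO5 (1.14, SE 0.18), LBD41 (-1.30, SE 0.39) and BT3 (-1.47, SE 0.50) in N9416. Anthocyanin genes were mostly too low to test, with 1 of 6 tested in N8507, not past the threshold, and 0 in the other genotypes.

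Across the 22 group means of log2 CPM, which share media, library series and depth, the members formed an uneven set. HHO1 and HHO2 had Pearson r = 0.98, HHO1 and HHO3 0.94, HRS1 and HHO1 0.91, and HRS1 and LBD39 0.90. BT1 and BT2 had 0.73. LBD37 and LBD38 had 0.81 with each other, but LBD37 had 0.35 with HHO2, 0.45 with LBD39 and 0.21 with BT2. LBD39 was therefore closer to HRS1 than to its own relatives. With SPX1, HHO2 had r = 0.95, HHO1 0.91, HRS1 0.72, BT1 0.37 and LBD37 0.15, and with NRT2.5 the values were -0.82 for HHO1 and HHO2 and -0.09 for LBD37.

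Among 8935 other genes with a symbol, those most like HHO2 were SRG3 (0.960), OCT4 (0.956) and PEPC1 (0.953, locus AT1G17710, a phosphatase gene), and those most like HHO1 PGM (0.931), MGD1 (0.924), a galactolipid synthase gene, and SRG3 (0.919). HHO1, HHO2 and HHO3 have no symbol in the annotation and were not candidates. HHO3 was most like STY46 (0.943), PGM (0.923) and CDSP32 (0.913), and HRS1 like LBD39 (0.898), CLC-A (0.881), a vacuolar nitrate transporter gene, and CDSP32 (0.878). LBD37 was most like G6PD2 (0.872), MAPKKK13 (0.857) and NIR1 (0.829), the nitrite reductase gene, and LBD38 like MAPKKK13 (0.839), G6PD2 (0.826) and LBD37 (0.808). LBD39 had HRS1 (0.898), STY46 (0.872) and WNK7 (0.868). BT1 was most like the trehalose phosphate synthase family genes TPS9 (0.901) and TPS10 (0.868), followed by RTL1 (0.866), and BT2 like TPS10 (0.855), CLC-A (0.853) and BCE2 (0.844).

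**Figure D5:**
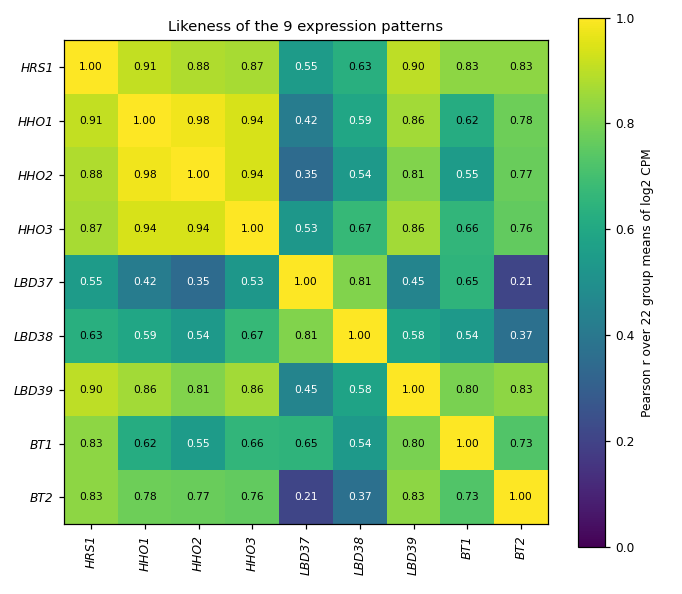
Pearson r between the 9 members over the 22 group means of log2 CPM, as colour and printed value. HRS1 and the HHO genes hold values of 0.87 and above among themselves, while LBD37 has 0.65 or less and LBD38 0.67 or less with every member other than each other.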

How the data were processed

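RNA-seq of 66 root libraries was analysed, with genotype and treatment taken from the labels. Per the labels' protocols, root RNA came from a Spectrum total RNA kit for plants and went into stranded libraries (NEBNext Ultra II). Trimmomatic trimmed and Salmon 1.3.0 quantified the reads on TAIR10, per the submitters' processing notes. Salmon's options are not given in the sources used here. The deposited tables hold estimated counts per transcript model, not normalized by the authors, and TPM, which the authors' Salmon run scaled by effective length and depth. Deposited effective lengths served as a quality check. Of 32875 models 99.99% had lengths that are multiples of 3, so they are coding sequences and reads in untranslated regions were not counted.

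For each of 27313 loci the estimated counts of its models were added up and rounded. CPM used TMM-scaled library sizes. edgeR 4.0.16 (R 4.3.3; quasi-likelihood test, filterByExpr, Benjamini-Hochberg over all genes tested, adjusted p under 0.05) was fitted per genotype, and on all 66 libraries for comparisons between genotypes. SE is the absolute log2 fold change over the square root of F. All 9 members were tested in every fit. DESeq2 1.42.0, other scaling, filters, fits and left-out libraries were tried as alternatives, and the scripts were tested on simulated data. No library was identical to another, and log2 CPM correlated by at most 0.9959 between libraries.

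The members, the lists and the alternatives were chosen with earlier results of these data known. Genes named were the 9 members, up to 3 per list with the largest change among those past the threshold on -P in Col-0 and in N9416, and per member the 3 genes with a symbol whose group means (log2 CPM, prior count 2) had the highest Pearson r. Sequences and coordinates are RefSeq's TAIR10.1; the deposited files name TAIR10 and hold no coordinates.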

Additional observations from a re-analysis of the deposited data

Results flagged for a closer look

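The results listed here are differences between effects that passed a test of the difference itself, with no explanation weighed. The response to -P in a line minus that in Col-0 passed as follows. In N8507 the differences were 1.49 for LBD38, -1.65 for HRS1, -3.97 for HHO1, -1.56 for HHO2, -1.27 for HHO3, -2.43 for LBD39 and -1.52 for BT1 on the log2 scale. In N8508 they were -3.09 for HRS1, -6.26 for HHO1, -3.23 for HHO2, -2.64 for HHO3, -5.02 for LBD39, -4.06 for BT1 and -4.17 for BT2. In N9416 they were 1.11 for LBD37, 2.2 for LBD38, -2.11 for HRS1, -2.61 for HHO1, -1.36 for HHO2, -0.98 for HHO3, -2.15 for LBD39, -3.15 for BT1 and -4.00 for BT2. LBD38 and BT1 in N8507 and LBD37 in N9416 missed the threshold in most fits without 1 library. They also missed it with only the 2 genotypes compared. HHO3 in N9416 missed it in some fits without 1 library.

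The thorium effect with nanoP minus that on -P passed in all 3 lines and for no member in Col-0. In N8507 the differences were 3.17 for HRS1, 4.42 for HHO1, 1.16 for HHO2, 1.65 for HHO3, 1.71 for LBD37, 3.69 for LBD39, 5.88 for BT1 and 6.25 for BT2. In N8508 they were 2.25 for HRS1, 2.33 for HHO1, 1.70 for HHO2, 0.82 for HHO3, 1.35 for LBD38, 1.98 for LBD39, 1.91 for BT1 and 1.77 for BT2. In N9416 they were 0.88 for HHO2, 1.76 for BT1 and -0.92 for LBD38. The LBD38 result in N9416 missed the threshold in the fit of all 66 libraries, and that of HHO3 in N8508 without nanoP replicate 1. Whether these differences themselves differ between genotypes was not tested.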

How the results depend on the processing

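Of 180 gene results past the threshold, none changed direction under any alternative. With DESeq2 1 of 180 missed the threshold, in one fit of all 66 libraries 9 of 134 and with only the 2 genotypes compared 3 of 46, while 0 did with median-ratio scaling, without the filter on low counts, or in the 106 refitted without the libraries of low effective length. Leaving out 1 library, 63 of 1332 missed it, spread over 13 gene results. The number of members past the threshold moved as follows. For nanoP against mock it was 0 in Col-0, but 1 with DESeq2, 1 in one fit of all 66 libraries and 1 without the libraries of low effective length, and it was 1 in N8507, but 2, 2 and 4 under the same alternatives. For -P+Th against -P in Col-0 it was 2, but 6 in one fit of all 66 libraries. For nanoP+Th against nanoP it was 0 in Col-0, but 1 with DESeq2 and 1 in one fit of all 66 libraries, and 2 in N8508, but 1 in one fit of all 66 libraries. For the thorium difference in Col-0 it was 0, but 1 with DESeq2 and 2 in one fit of all 66 libraries. Without 1 library the count ran from 3 to 6 for -P against mock in N8508, from 1 to 2 for nanoP against mock in N8507, from 1 to 2 for -P+Th against -P in Col-0, from 2 to 4 for nanoP+Th against nanoP in N8508, and for the thorium difference from 0 to 1 in Col-0 and from 3 to 5 in N9416. Where fewer libraries or other libraries sharing the spread do not account for a move by construction, the cause was not tested. The group with the highest mean was the same for 9 of 9 members by raw CPM and by TPM, and 22 of the 27 most alike genes remained without Col-0 -P+Th and 25 with a prior count of 0.5. No paired analysis was possible because the labels give library numbers and no replicate numbers shared between groups. With 11, 10 and 3 reads of HHO1 in Col-0 mock and 0 to 5 in its nanoP and nanoP+Th libraries, folds against these groups rest on few reads.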
